A study of Oryza sativa with 12 samples.

Results

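The core circadian clock genes of rice are described here in roots and shoots of a line that overexpresses Zaxinone Synthase (ZAS). They are 8 gene models of the 57501 in the count table, chosen by identifier: the dawn MYB genes LHY and REVEILLE 8, 5 pseudo-response regulator (PRR) genes and GIGANTEA. The table names each after its closest homologue. LOC_Os09g36220 and LOC_Os11g05930 carry the same name, PRR95, and the gene on chromosome 11 is called PRR95-like below.

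RNA was sequenced from 4 groups of 3 libraries: OX6 roots, wild-type (WT) roots, OX6 shoots and WT shoots. OX6 is 1 ZAS-overexpressing line, and the wild type is the cultivar Nipponbare. All plants were 21 days old and grown in hydroponics. No other treatment is named, but every library title carries a letter P that the labels do not explain. With 1 line, an effect of the transgene and any other difference of that stock cannot be told apart. The labels name neither the promoter of the transgene nor the hour of harvest, and they do not say whether replicates were separate plants. P-values therefore measure the spread between these libraries. Each level is a single point of a daily cycle, in which a shift in time and a change in level cannot be told apart. Whether the 4 groups were harvested at the same hour is not known, so a difference in harvest hour cannot be told apart from these either.

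The plant clock is a loop of transcription factors that repress one another in turn over the day. LHY, a MYB repressor, peaks around dawn; the PRR proteins follow one after another through the day and repress LHY; GIGANTEA and PRR1, the rice counterpart of Arabidopsis TOC1, come towards evening. In rice these genes also set the heading date through the photoperiod pathway, where PRR37 and GIGANTEA are known regulators.

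The libraries held 32269044 to 62910092 counts each, the highest being WT shoot replicate 2. The ZAS locus, LOC_Os09g15240 (its identity is background knowledge), had 12637 to 14246 counts in OX6 roots, against 109 to 124 in WT roots. It had 51763 to 64950 counts in OX6 shoots, against 5 to 26 in WT shoots, so every library matched its label. Summed CPM (read counts scaled to a common library size over all 12 libraries) of 8 green-tissue markers were 185 to 221 in OX6 roots, 233 to 257 in WT roots, 57182 to 59708 in OX6 shoots and 67528 to 73785 in WT shoots. Of 5 root markers, the sum was 7277 to 8694 CPM in OX6 roots, 7599 to 8537 in WT roots, 20.7 to 25.9 in OX6 shoots and 26.7 to 42.9 in WT shoots, with 1 of the 5 at 0 in each OX6 root library and 2 at 0 in each shoot library. No green-tissue marker was at 0 in any library.

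All 8 genes passed the filter on low counts in every fit. By the coordinates in the table, LHY (LOC_Os08g06110) lies on chromosome 8 at 3365730 to 3373434 on the plus strand, and REVEILLE 8 (LOC_Os06g01670) on chromosome 6 at 398591 to 403494 on the minus strand. PRR37 (LOC_Os07g49460) lies on chromosome 7 at 29616705 to 29629223, plus strand, and PRR73 (LOC_Os03g17570) on chromosome 3 at 9759479 to 9768690, minus strand. PRR95 (LOC_Os09g36220) lies on chromosome 9 at 20885172 to 20889843, minus strand, and PRR95-like on chromosome 11 at 2788996 to 2793735, plus strand. PRR1 (LOC_Os02g40510) lies on chromosome 2 at 24569294 to 24572560, plus strand, and GIGANTEA (LOC_Os01g08700) on chromosome 1 at 4329152 to 4338486, minus strand. The table gives both MYB genes a Myb-like DNA-binding domain and all 5 PRR genes a response regulator receiver domain with a CCT motif. No other gene model of the table overlaps any of the 8, which matters because the strand setting of the counting is not given in the sources used here.

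Levels of different genes were compared as TPM, the share of a library's transcripts after division by gene length. GIGANTEA was the most abundant clock transcript in roots, with 374 ± 26.6 TPM in OX6 roots and 379 ± 16.0 TPM in WT roots (SD, n = 3 each), above 98.6% of the tested genes in both. PRR73, a daytime repressor, came next with 95.2 ± 7.11 TPM in OX6 roots and 101 ± 2.73 TPM in WT roots. PRR1 followed with 45.3 ± 2.82 TPM in OX6 roots and 44.8 ± 2.66 TPM in WT roots. PRR95 had 31.9 TPM in OX6 roots and 36.8 TPM in WT roots, and PRR95-like had 32.1 TPM in OX6 roots and 34.3 TPM in WT roots; the libraries of these neighbours overlapped in both genotypes. PRR37 had 15.6 TPM in OX6 roots and 15.3 TPM in WT roots. LHY had 9.80 TPM in OX6 roots and 11.5 TPM in WT roots, and REVEILLE 8 had 7.64 TPM in OX6 roots and 7.93 TPM in WT roots. LHY and REVEILLE 8 overlapped in OX6 roots and not in WT roots, and no other neighbours in the order overlapped.

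In shoots PRR95 stood beside GIGANTEA at the top. PRR95 had 346 ± 16.0 TPM in OX6 shoots and 273 ± 20.3 TPM in WT shoots. GIGANTEA had 270 ± 22.2 TPM in OX6 shoots and 301 ± 51.6 TPM in WT shoots. All 3 OX6 shoot libraries had more PRR95 than any had GIGANTEA, whereas the ranges of the 2 genes overlapped in WT shoots. PRR73 came after them in both, with 166 ± 13.4 TPM in OX6 shoots and 171 ± 14.8 TPM in WT shoots. PRR1 was above PRR37 in OX6 shoots, at 69.4 ± 2.96 against 61.4 ± 4.31 TPM, and below it in WT shoots, at 54.1 ± 2.93 against 68.7 ± 7.28 TPM, without overlap in either. PRR95-like had 47.7 TPM in OX6 shoots and 36.5 TPM in WT shoots. LHY had 22.4 TPM in OX6 shoots and 26.5 TPM in WT shoots, and REVEILLE 8 had 15.9 TPM in OX6 shoots and 14.1 TPM in WT shoots. Replicates of a group were close: the coefficient of variation of the 8 genes' CPM was 1.93 to 10.9% in OX6 roots, 2.42 to 5.51% in WT roots, 2.10 to 8.60% in OX6 shoots and 2.88 to 15.5% in WT shoots, the last value being GIGANTEA.

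**Figure D1:**
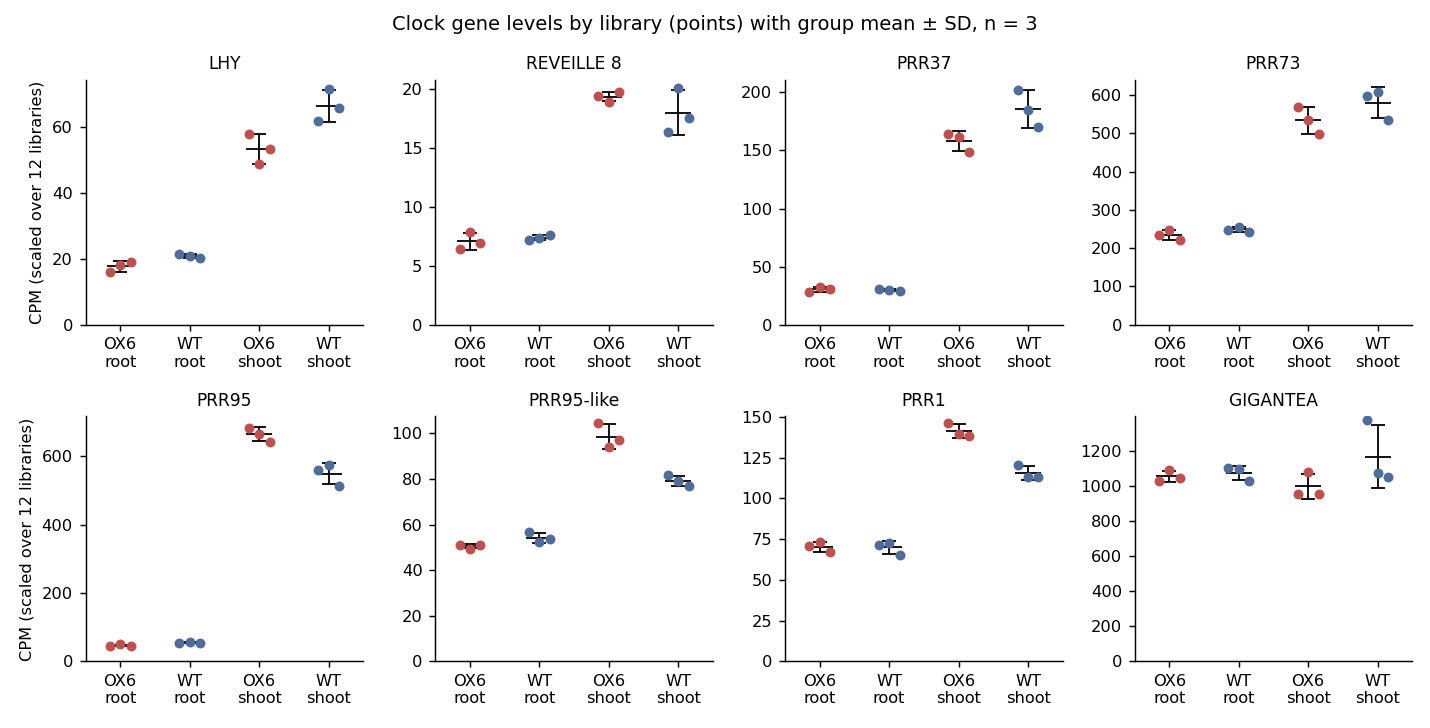
CPM of the 8 clock genes (vertical axes, scaled over 12 libraries, each from 0) in OX6 roots, WT roots, OX6 shoots and WT shoots; points are libraries and bars the group mean ± SD (n = 3). On this scale, every gene apart from GIGANTEA has all its root libraries below all its shoot libraries. The share of all genes with this pattern was not counted.

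The first comparison is between organs. In CPM scaled over 12 libraries, roots held less transcript than shoots of 7 of the 8 clock genes in either genotype. GIGANTEA did not pass the test. PRR95 and PRR37, which act in the daytime, had the widest gaps among the 8. Across all genes tested by edgeR's quasi-likelihood test over 12 libraries, 73.8% were called between OX6 roots and OX6 shoots and 73.0% between WT roots and WT shoots (Benjamini-Hochberg adjusted p under 0.05). Calls lower in roots made up 36.5% of tested genes in OX6 and 35.4% in WT. The median log2 fold change, root over shoot, was -1.32 for the 8 clock genes in OX6 and -1.25 in WT, beside 0.029 in OX6 and 0.048 in WT over all tested genes. At least 2-fold lower in roots were 6 of the 8 in OX6 and 5 of the 8 in WT, against 24.8% of all genes in OX6 and 24.6% in WT. In bulk organs, fewer cells of a type and less RNA per cell cannot be told apart.

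PRR95 had 45.8, 49.7 and 44.8 CPM in OX6 roots, against 683.4, 666.6 and 642.4 CPM in OX6 shoots. It had 53.8, 55.7 and 53.1 CPM in WT roots, against 559.2, 574.7 and 513.9 CPM in WT shoots. Every root library was far below every shoot library. The log2 fold change was -3.83 ± 0.092 (SE) in OX6, with an adjusted p of 1.03e-16, and -3.34 ± 0.090 in WT, with an adjusted p of 4.46e-16 (edgeR). The level in roots was 7.04% of that in shoots in OX6 and 9.87% in WT. The 8 green-tissue markers in roots stood at 0.355% of their level in shoots in OX6 and 0.341% in WT.

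PRR37 had 28.1, 32.4 and 31.01 CPM in OX6 roots, against 164.5, 161.7 and 148.3 CPM in OX6 shoots. It had 30.9, 30.2 and 29.2 CPM in WT roots, against 202.2, 184.9 and 170.0 CPM in WT shoots. The groups were separate in either genotype, with log2 fold changes of -2.37 ± 0.092 in OX6 and -2.62 ± 0.092 in WT (SE; edgeR adjusted p 6.66e-14 in OX6 and 1.75e-14 in WT). PRR73, its close relative, had 220.4 to 247.9 CPM in OX6 roots against 497.8 to 569.0 CPM in OX6 shoots, and 242.9 to 256.3 CPM in WT roots against 534.2 to 608.8 CPM in WT shoots. Its log2 fold changes were -1.19 in OX6 and -1.22 in WT.

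The dawn genes were also lower in roots. LHY had 16.0, 18.2 and 19.1 CPM in OX6 roots, against 58.0, 48.9 and 53.2 CPM in OX6 shoots. It had 21.6, 21.0 and 20.3 CPM in WT roots, against 61.9, 71.6 and 65.7 CPM in WT shoots. That is a log2 fold change of -1.59 ± 0.097 in OX6 and -1.67 ± 0.096 in WT (SE; edgeR adjusted p 5.09e-11 in OX6 and 2.32e-11 in WT). REVEILLE 8, in Arabidopsis a MYB activator of evening genes, had log2 fold changes of -1.45 in OX6 and -1.29 in WT.

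PRR95-like and PRR1 had the smallest of the called gaps. PRR95-like had 49.4 to 51.2 CPM in OX6 roots against 93.9 to 104.7 CPM in OX6 shoots, and 52.5 to 56.7 CPM in WT roots against 77.1 to 81.6 CPM in WT shoots. Its log2 fold change was -0.96 ± 0.076 in OX6 and -0.55 ± 0.076 in WT (SE). In TPM its WT libraries overlapped between organs, at 33.0 to 36.2 in roots and 34.7 to 38.3 in shoots. Its OX6 libraries did not overlap in TPM. PRR1 had 66.9 to 73.3 CPM in OX6 roots against 138.3 to 146.2 CPM in OX6 shoots, and 65.5 to 72.7 CPM in WT roots against 112.9 to 120.6 CPM in WT shoots. Its log2 fold change was -1.01 ± 0.079 in OX6 and -0.73 ± 0.078 in WT (SE).

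GIGANTEA differed from the other 7 in having no called gap. It had 1028, 1091 and 1048 CPM in OX6 roots, against 956.9, 1082 and 953.8 CPM in OX6 shoots. It had 1101, 1094 and 1030 CPM in WT roots, against 1374, 1075 and 1050 CPM in WT shoots. On this scale the ranges overlapped in both genotypes, and WT shoot replicate 1 was the highest of the 12 libraries. In TPM they did not overlap, and every root library was above every shoot library of its genotype. GIGANTEA had 345 to 397 TPM in OX6 roots against 253 to 295 TPM in OX6 shoots. It had 362 to 392 TPM in WT roots against 264 to 360 TPM in WT shoots. The absence of a gap thus depends on the scale. The test used the scaled counts. The log2 fold change was 0.082, with a 95% confidence interval of -0.15 to 0.31, in OX6, and -0.12, with an interval of -0.35 to 0.11, in WT (edgeR adjusted p 0.504 in OX6 and 0.337 in WT).

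**Figure D2:**
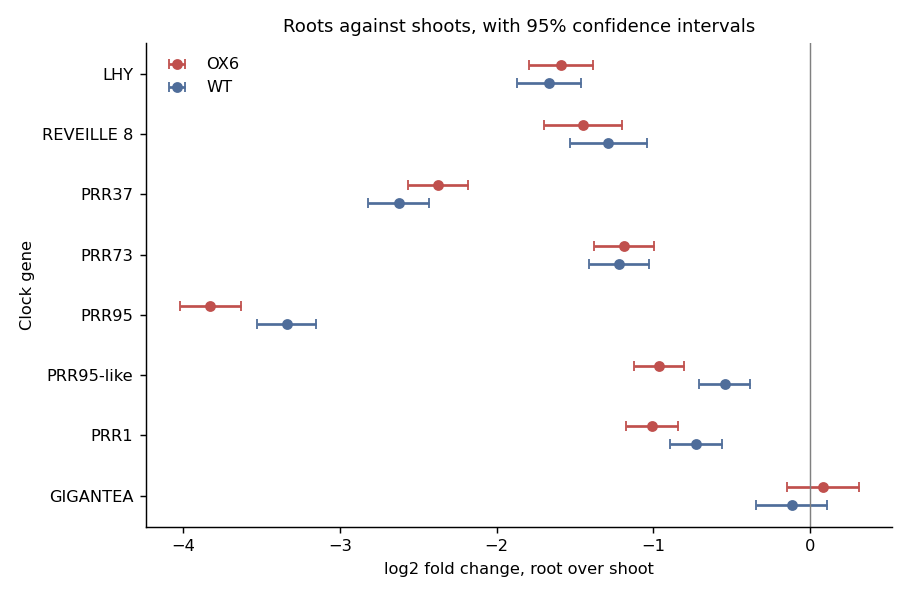
Log2 fold change of each clock gene, root over shoot (horizontal axis), in OX6 (upper point of each pair) and WT (lower point), with 95% confidence intervals from the 12-library fit. The intervals of 7 genes lie below 0, and those of GIGANTEA include 0. The points of the 7 run from -3.83 for PRR95 in OX6 to -0.55 for PRR95-like in WT.

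The second comparison is OX6 against WT within roots, where ZAS overexpression is the labelled difference. None of the 8 clock genes was called by edgeR, with adjusted p-values of 0.128 to 0.974. DESeq2 and limma-voom also called 0 of 8. Over all genes tested in roots, edgeR called 2.83%. An unadjusted p under 0.05 was found in 2 of the 8, LHY and PRR95. It was also found in 8 of the 80 other clock and light genes tested in roots, which are described below. The share of all genes at that unadjusted level was not counted. The median size of the log2 fold change was 0.073 for the 8 genes and 0.111 over all genes. In 3 of the 8, all OX6 libraries lay below all WT libraries, a pattern that 9.43% of all genes had; none of the 8 had the reverse, which 9.54% of all genes had.

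LHY had 18.4, 21.3 and 22.4 CPM (scaled within roots) in OX6 roots, against 25.1, 24.4 and 23.6 CPM in WT roots. Each OX6 root library was below each WT root library. The log2 fold change was -0.23 ± 0.086 (SE), with a 95% confidence interval of -0.42 to -0.051 and an edgeR adjusted p of 0.208. PRR95 had 52.9, 58.1 and 52.5 CPM in OX6 roots, against 62.6, 64.8 and 61.8 CPM in WT roots. These groups did not overlap, at a log2 fold change of -0.21 ± 0.067 (SE; edgeR adjusted p 0.128).

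PRR95-like had 58.8, 57.8 and 60.1 CPM in OX6 roots, against 65.9, 61.2 and 62.4 CPM in WT roots, also without overlap, at a log2 fold change of -0.10 (edgeR adjusted p 0.552). The other 5 genes overlapped between genotypes in roots. Their log2 fold changes were -0.060 for REVEILLE 8, 0.022 for PRR37, -0.086 for PRR73, 0.010 for PRR1 and -0.024 for GIGANTEA. GIGANTEA had 1186, 1277 and 1229 CPM in OX6 roots, against 1280, 1274 and 1200 CPM in WT roots. Its 95% confidence interval ran from -0.16 to 0.11.

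The third comparison is OX6 against WT within shoots. The clock genes lay on either side of WT here: PRR95, PRR95-like and PRR1 were 1.21 to 1.24-fold higher in OX6, with every OX6 library above every WT library, and LHY and PRR37 were 1.25 and 1.17-fold lower, with every OX6 library below every WT library. None of the 8 was called by edgeR, with adjusted p-values of 0.0733 to 0.750, where 5.64% of all genes tested in shoots were called. An unadjusted p under 0.05 was found in 5 of the 8. It was also found in 22 of the 86 other clock and light genes tested in shoots, which are described below. The share of all genes at that unadjusted level was not counted. The patterns without overlap were found in 12.4% of all genes for OX6 above WT and 11.6% for OX6 below WT. The median size of the log2 fold change was 0.25 for the 8 genes and 0.19 over all genes. The call depended on the fit. With all 12 libraries in 1 edgeR fit 4 genes passed (PRR95-like at adjusted p 0.0151, PRR1 at 0.0287, LHY at 0.0438 and PRR95 at 0.0467). DESeq2 called 3 (PRR95-like at 0.0243, PRR1 at 0.0305 and PRR95 at 0.0349), and limma-voom called 0. The number of calls over all genes moved as well. It was 2459 of 29042 in the 12-library fit and 2027 of 26251 with DESeq2. With limma-voom it was 1440 of 26251, against 1481 of 26251 in the main fit. The green-tissue markers were lower in every OX6 shoot library than in every WT shoot library, at the summed levels given above, and their part in these differences was not tested.

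PRR95-like had 89.9, 80.5 and 83.3 CPM (scaled within shoots) in OX6 shoots, against 70.2, 67.7 and 66.3 CPM in WT shoots. The groups were separate, with a log2 fold change of 0.31 ± 0.099 (SE), a 95% confidence interval of 0.11 to 0.52 and an edgeR adjusted p of 0.0733. PRR1, the evening repressor, had 125.7, 119.4 and 118.7 CPM in OX6 shoots, against 103.7, 96.9 and 97.5 CPM in WT shoots. These too were separate, with a log2 fold change of 0.29 ± 0.096 (SE; edgeR adjusted p 0.0978).

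PRR95 had 587.3, 571.7 and 551.4 CPM in OX6 shoots, against 480.8, 493.0 and 442.0 CPM in WT shoots. The lowest OX6 library was above the highest WT library, at a log2 fold change of 0.27 ± 0.097 (SE; edgeR adjusted p 0.120). LHY, which the PRR proteins repress, had 49.8, 42.0 and 45.7 CPM in OX6 shoots, against 53.2, 61.4 and 56.5 CPM in WT shoots. All OX6 shoot libraries were the lower ones, at a log2 fold change of -0.32 ± 0.106 (SE), a 95% confidence interval of -0.54 to -0.092 and an edgeR adjusted p of 0.0986.

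PRR37 had 141.3, 138.7 and 127.3 CPM in OX6 shoots, against 173.8, 158.6 and 146.2 CPM in WT shoots. The groups did not overlap, at a log2 fold change of -0.23 ± 0.103 (SE; edgeR adjusted p 0.226). GIGANTEA had 822.2, 927.5 and 818.6 CPM in OX6 shoots, against 1181, 922.3 and 903.1 CPM in WT shoots. Its groups overlapped, and WT shoot replicate 1 stood above the rest; the log2 fold change was -0.23 with a 95% confidence interval of -0.47 to 0.013. REVEILLE 8 and PRR73 also overlapped, with log2 fold changes of 0.10 and -0.12.

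**Figure D3:**
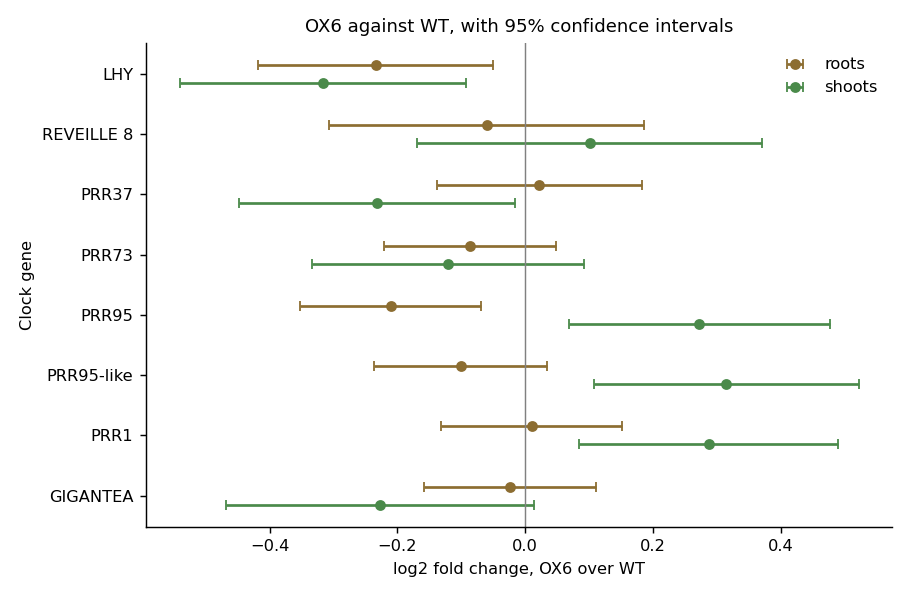
Log2 fold change of each clock gene, OX6 over WT (horizontal axis), in roots (upper point of each pair) and shoots (lower point), with 95% confidence intervals from the fit of each organ. The intervals exclude 0 for LHY and PRR95 in roots and for LHY, PRR37, PRR95, PRR95-like and PRR1 in shoots, before adjustment over all genes.

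Whether the OX6 difference itself differed between organs was tested as an interaction over the 12 libraries, the same ones as in the comparisons above. PRR95 was the 1 called gene of the 8, and 1.97% of all genes were called. Its OX6 difference in roots minus that in shoots was -0.49 ± 0.117 on the log2 scale (SE), with a 95% confidence interval of -0.73 to -0.24 and an edgeR adjusted p of 0.0386: the difference was negative in roots and positive in shoots, and neither passed within its organ. PRR95-like had a similar value, -0.42 ± 0.107, and did not pass (edgeR adjusted p 0.0538). PRR1 had -0.28 (0.261), PRR37 0.25 (0.408) and GIGANTEA 0.20 (0.654), and the other 3 genes had 0.078 for LHY, -0.16 for REVEILLE 8 and 0.031 for PRR73.

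The PRR95 call rests on its margin. It was lost with RLE scaling (adjusted p 0.0541) and with upper-quartile scaling (0.0622), and it was kept by DESeq2 (7.34e-04) and limma-voom (0.0149). With 1 library left out, it was kept without OX6 root replicate 2 (0.0472) or WT shoot replicate 2 (0.0458), and lost without any 1 of the other 10 libraries, at adjusted p-values of 0.0559 to 0.137. The value itself stayed between -0.53 and -0.40 in all 12 of these fits. PRR95-like passed under DESeq2 (0.00592), limma-voom (0.0442) and a filter of more than 1 CPM in 3 libraries (0.0489).

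The ratio of a clock gene to LHY within a library needs no scaling between libraries. All 7 ratios share LHY as their denominator and are not independent of one another; with 3 libraries a group an exact permutation test cannot go below 0.10, and none was made. LHY itself was lower in every OX6 library of either organ, so most genes had a higher ratio to LHY in OX6: the median over all tested genes with a count in every library of the organ was 1.18-fold in roots and 1.24-fold in shoots. The ratio was higher in every OX6 library than in every WT library for 39.6% of all tested genes in roots and 36.6% in shoots. In shoots, the log2 ratio of PRR95 to LHY was 3.87, 4.08 and 3.90 in OX6, against 3.49, 3.32 and 3.28 in WT. That of PRR1 to LHY was 1.56, 1.74 and 1.60 in OX6 shoots, against 1.19, 0.88 and 1.01 in WT shoots. Both ratios were about 1.5-fold higher in OX6 shoots, by 1.51 and 1.52-fold, without overlap.

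The ratio of PRR95-like to LHY was 1.55-fold higher and that of REVEILLE 8 to LHY 1.34-fold higher in OX6 shoots, also without overlap. Those of PRR37, PRR73 and GIGANTEA to LHY overlapped in shoots, at 1.06, 1.15 and 1.07-fold. In roots the ratios to LHY were 1.02-fold for PRR95 to 1.20-fold for PRR37 in OX6 relative to WT. Those of PRR37 and GIGANTEA, at 1.20 and 1.16-fold, were above their shoot values, and those of the other 5 genes were below them. The groups did not overlap in roots for PRR37, PRR95-like, PRR1 and GIGANTEA, with values of 1.10 to 1.20-fold beside the median of 1.18-fold over all genes. The log2 ratio of PRR95 to GIGANTEA, which leaves LHY out, was 0.25 to 0.46 in OX6 shoots, against -0.35 to 0.042 in WT shoots. In roots it was -3.60 to -3.51 in OX6, against -3.41 to -3.33 in WT. The lowest WT shoot value was that of replicate 1, the WT shoot library with the most GIGANTEA. No share over all genes was counted for this ratio.

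**Figure D4:**
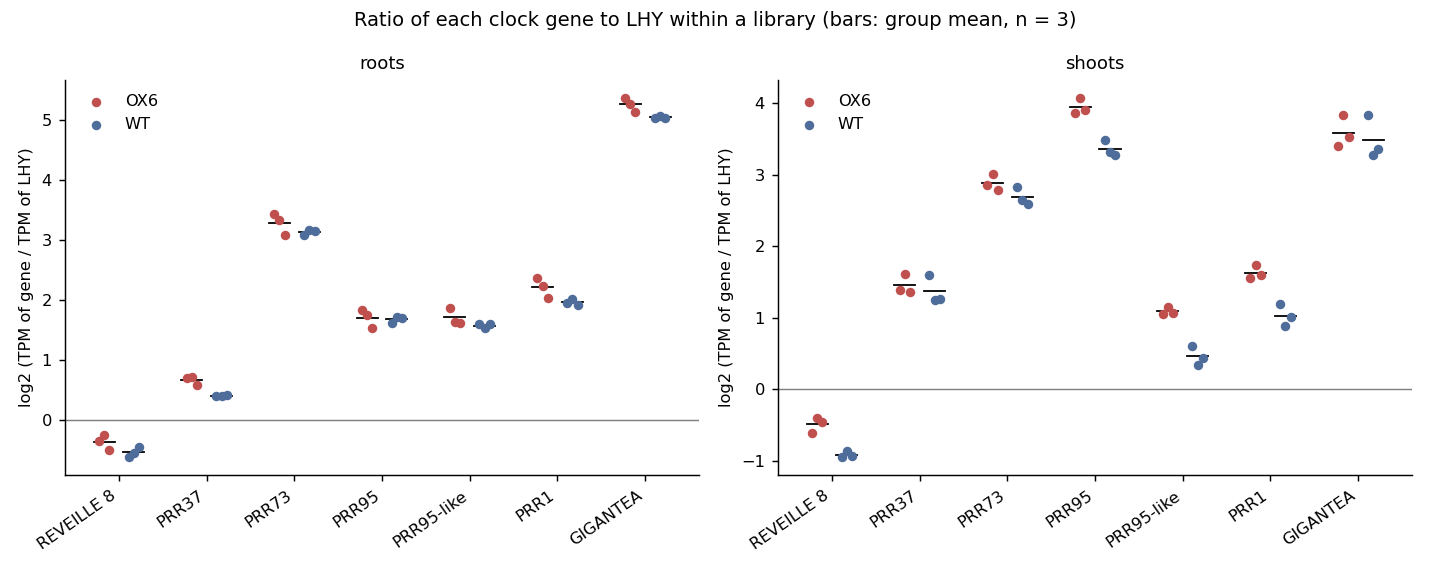
Log2 ratio of each clock gene's TPM to that of LHY in the same library (vertical axis) in roots (left) and shoots (right), with OX6 points left of WT points and bars at group means (n = 3). In shoots the OX6 and WT libraries are separate for REVEILLE 8, PRR95, PRR95-like and PRR1, as they are, with OX6 higher, for 36.6% of all tested genes.

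Other genes named for the clock, light perception and photoperiod output were collected by name, which gave 104 gene models. In roots 80 were tested, of which 4 fell and 0 rose (5.0% called, against 2.83% of all genes; median log2 fold change -0.039, against 0.0024 over all genes). In shoots 86 were tested, of which 3 rose and 2 fell (5.81% called, against 5.64% of all genes; median log2 fold change -0.012, against -0.0057 over all genes). None of 17 tested photoreceptor and COP1 genes passed in either organ; 0 had an unadjusted p under 0.05 in roots and 3 in shoots by edgeR. Phytochrome A (LOC_Os03g51030), the most abundant of them in roots, averaged 128.9 ± 10.7 CPM in OX6 roots and 130.2 ± 6.86 CPM in WT roots (SD, n = 3 each).

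The 4 that fell in roots included 2 of the 6 tested genes named cyclic DOF factor, a family that in Arabidopsis represses CONSTANS and is removed by a GIGANTEA complex. The other 4 of the 6 did not pass in roots, with log2 fold changes of -0.10 to 0.16. Cyclic dof factor 1 (LOC_Os10g26620) had 24.6, 25.3 and 25.2 CPM in OX6 roots, against 46.4, 57.0 and 43.0 CPM in WT roots. All OX6 root libraries were far below WT, at a log2 fold change of -0.96 ± 0.093 (SE; edgeR adjusted p 1.27e-05). Cyclic dof factor 2 (LOC_Os03g07360) had 16.5, 14.8 and 13.3 CPM in OX6 roots, against 24.4, 29.5 and 22.9 CPM in WT roots, a log2 fold change of -0.78 ± 0.108 (SE; edgeR adjusted p 4.66e-04). It also fell in shoots, with 108.5, 112.0 and 97.8 CPM in OX6 shoots, against 148.7, 141.5 and 122.9 CPM in WT shoots (log2 fold change -0.38, edgeR adjusted p 0.0437).

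Cyclic dof factor 1 averaged 7.14 ± 0.666 CPM in OX6 shoots and 10.3 ± 1.13 CPM in WT shoots, and did not pass there (SD, n = 3 each; edgeR adjusted p 0.0661). It passed in shoots with no count filter (0.0487), with DESeq2 (0.0389), without WT shoot replicate 3 (0.0371) and with all 12 libraries in 1 fit (0.0151). The shoot call of Cyclic dof factor 2 was kept without WT shoot replicate 3 and lost without any 1 of the other 5 shoot libraries, at adjusted p-values of 0.0905 to 0.233. The root calls of Cyclic dof factor 1 and of this Cyclic dof factor 2 held in every alternative.

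Adagio-like protein 3 (LOC_Os11g34460), named after the family of blue-light F-box proteins that partner GIGANTEA in Arabidopsis, averaged 63.9 ± 1.97 CPM in OX6 roots and 79.7 ± 2.47 CPM in WT roots (SD, n = 3 each). The groups were separate, at a log2 fold change of -0.32 (edgeR adjusted p 0.00987), and the call was lost without OX6 root replicate 2 (0.0541), WT root replicate 1 (0.0663) or WT root replicate 3 (0.0585), and with all 12 libraries in 1 fit (0.102). REVEILLE 2 (LOC_Os06g51260), a MYB gene of the LHY family, had 1.38, 1.18 and 0.888 CPM in OX6 roots, against 2.91, 2.02 and 2.17 CPM in WT roots. This is 34 to 48 counts in each OX6 root library and 74 to 106 in each WT root library. Its log2 fold change of -1.04 (edgeR adjusted p 0.0378) kept its call without OX6 root replicate 1 and lost it without any 1 of the other 5 root libraries, at 0.0605 to 0.191, and with limma-voom (0.0566).

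REVEILLE 2 also fell in shoots, with 45.8, 44.1 and 40.4 CPM in OX6 shoots, against 56.8, 62.4 and 58.3 CPM in WT shoots. The groups were separate, at a log2 fold change of -0.45 (edgeR adjusted p 0.0126), and the call was lost without OX6 shoot replicate 2 (0.0652), OX6 shoot replicate 3 (0.107) or WT shoot replicate 2 (0.0635). LHY, of the same MYB family, had log2 fold changes of -0.23 in roots and -0.32 in shoots that did not pass, as given above.

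In shoots PCL1 (LOC_Os01g74020), named after the MYB-like member of the Arabidopsis evening complex, had the highest fold change of the 3 that rose. It had 10.5, 12.01 and 12.06 CPM in OX6 shoots, against 5.92, 5.34 and 5.02 CPM in WT shoots. Every OX6 library was well above WT, at a log2 fold change of 1.09 ± 0.160 (SE; edgeR adjusted p 3.19e-04), a call held in every alternative. In roots it averaged 5.88 ± 1.36 CPM in OX6 and 5.15 ± 0.864 CPM in WT, with overlap (SD, n = 3 each). Its interaction, -0.90 on the log2 scale, did not pass (edgeR adjusted p 0.0774). Of 19 alternatives, 2 passed it: DESeq2 (adjusted p 0.0301) and edgeR without OX6 root replicate 3 (0.0480). Other evening-complex names did not pass in shoots. The other gene named PCL1 (LOC_Os01g62660) had a log2 fold change of -0.096 there and LUX (LOC_Os05g34110) 0.024. The ELF4-LIKE genes had -0.043 to 0.0099.

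CONSTANS-LIKE 14 (LOC_Os09g33550), a zinc finger protein of the CONSTANS family, had 20.2, 15.2 and 20.1 CPM in OX6 shoots, against 12.1, 12.4 and 9.66 CPM in WT shoots. The log2 fold change was 0.70 ± 0.150 (SE; edgeR adjusted p 0.00803), lost without OX6 shoot replicate 1 (0.0612) or OX6 shoot replicate 3 (0.0727). In roots it averaged 32.5 ± 2.10 CPM in OX6 and 33.4 ± 1.81 CPM in WT (SD, n = 3 each). Its interaction was -0.74 ± 0.173 on the log2 scale (SE; edgeR adjusted p 0.0316), lost without any of 9 libraries, at 0.0515 to 0.114, and kept without OX6 shoot replicate 2 or WT shoot replicate 1 or 2. CONSTANS-LIKE 9 (LOC_Os02g49230) had 8.20, 6.88 and 5.18 CPM in OX6 shoots, against 1.95, 4.57 and 3.73 CPM in WT shoots (log2 fold change 0.96, edgeR adjusted p 0.0430). This call was kept without WT shoot replicate 2 or 3 and lost without any 1 of the other 4 shoot libraries, at 0.0549 to 0.212.

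**Figure D5:**
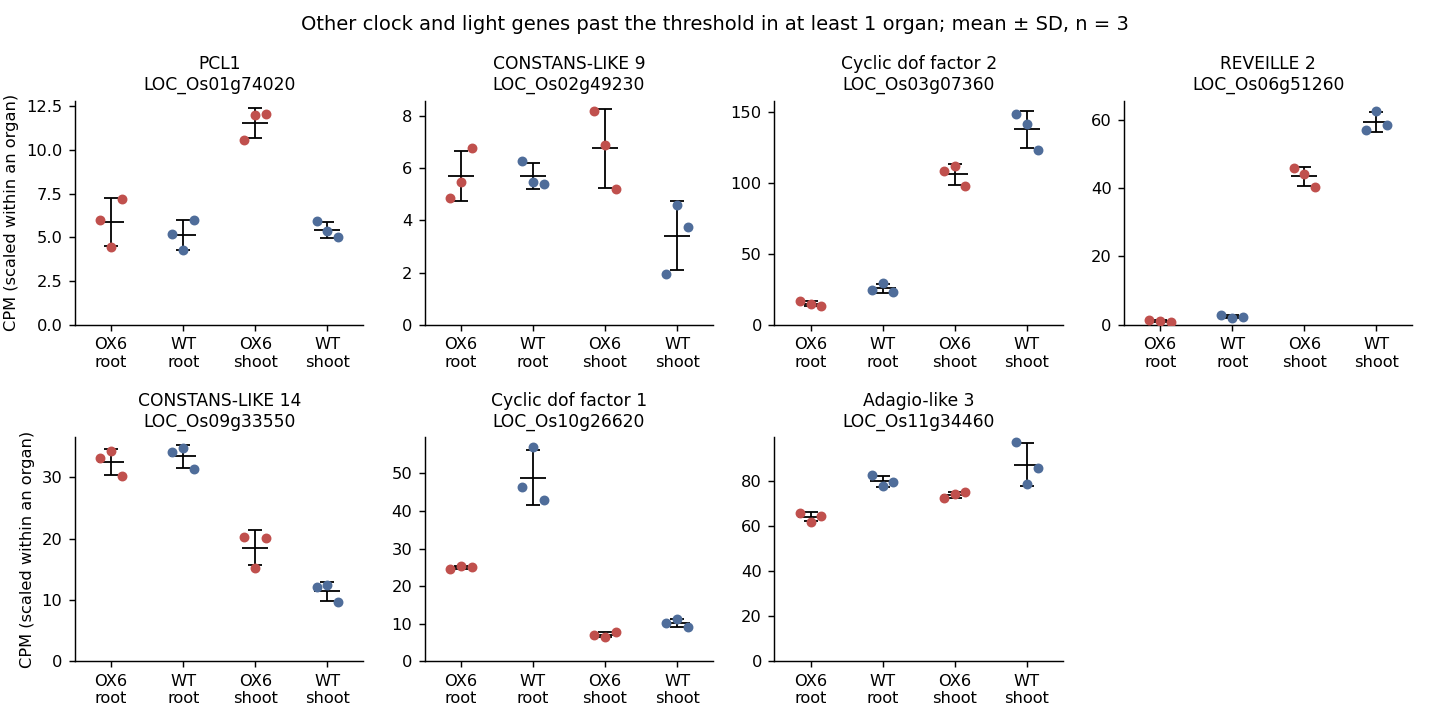
CPM scaled within an organ (vertical axes from 0) of the 7 other clock and photoperiod genes called in at least 1 organ; points are libraries and bars the mean ± SD (n = 3), to be compared within roots or within shoots. Cyclic dof factor 1 shows 24.6 to 25.3 CPM in OX6 roots below 43.0 to 57.0 CPM in WT roots, and PCL1 10.5 to 12.1 CPM in OX6 shoots above 5.02 to 5.92 CPM in WT shoots.

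Between organs, the other clock and light genes also lay mostly on the shoot side: of 90 tested in WT, 17 were higher and 58 lower in roots (83.3% called, against 73.0% of all genes). Of all 29042 genes tested, 10269 (35.4%) were called lower in WT roots. The most abundant evening-complex or MYB-partner gene, LNK1 (LOC_Os03g27019), was lower in WT roots, at 92.0 ± 5.66 CPM against 165 ± 17.7 CPM in WT shoots (SD, n = 3 each; edgeR adjusted p 4.10e-07). Of the 13 F-box and clock-associated genes, TIME FOR COFFEE (LOC_Os07g38360) was the most abundant and did not pass, at 239 ± 11.6 CPM in WT roots and 227 ± 67.1 CPM in WT shoots (SD, n = 3 each; edgeR adjusted p 0.702).

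Finally, the shape of each clock gene over the 12 libraries was compared with 13259 named genes of at least 5 CPM, as the root mean square difference of centred log2 CPM. Organ and library are shared by all genes, so the values are descriptions. PRR95-like and PRR1 were close to each other, at a difference of 0.090; 1 gene was closer to PRR95-like and 4 were closer to PRR1. REVEILLE 8 and PRR73 were 0.134 apart, with 64 and 87 genes closer. The other 4 lay farther from their nearest clock gene. For LHY this was REVEILLE 8 at 0.230, with 256 of the 13259 genes closer. For PRR37 it was LHY at 0.461, with 882 closer, and for PRR95 it was PRR37 at 0.583, with 814 closer. For GIGANTEA it was PRR95-like at 0.428, with 6582 closer. The genes most like GIGANTEA were Far upstream element-binding protein 2 (LOC_Os08g01930), RBBP6 (LOC_Os10g29560) and SUPPRESSOR OF FRI 4 (LOC_Os09g38790), at 0.045 to 0.056.

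Beta carbonic anhydrase 5 (LOC_Os09g28910) was most like LHY, at 0.089, and Cell division cycle-associated 7-like protein (LOC_Os02g20950) most like REVEILLE 8, at 0.067. The gene most like PRR37 was the copper-transporting ATPase PAA2 (LOC_Os03g08070), at 0.075, and the one most like PRR73 was phosphoribosylaminoimidazole carboxylase (LOC_Os01g10280), at 0.078. GDSL esterase/lipase APG (LOC_Os06g05630) was most like PRR95, at 0.090. Histidine protein methyltransferase 1 homolog (LOC_Os04g41500) was most like PRR95-like, at 0.077, and Aspartokinase 1 (LOC_Os01g70300) most like PRR1, at 0.075.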

How the data were processed

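Polyadenylated RNA of roots and shoots was sequenced in 12 libraries. Their titles give the group, the unexplained letter P and the replicate number. Per the submitters' processing notes, HISAT2 2.0.5 and featureCounts 1.5.0-p3 were used; the deposited table holds the authors' raw counts of reads per gene model. Names and coordinates are the file's own (build, annotation and strand setting: not given in the sources used here). Reads of close paralogs, such as the PRR genes, may be split or shared.

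The test was the robust quasi-likelihood test of edgeR 4.0.16 in R 4.3.3, two-sided, with TMM scaling, on genes kept by filterByExpr at a minimum count of 10 and a minimum total of 15. Benjamini-Hochberg adjustment ran over all genes, and an adjusted p under 0.05 was a call. OX6 and WT were compared in a fit of 6 libraries per organ (26574 genes in roots, 26251 in shoots), and the organs and the interaction in a fit of 12 libraries (29042 genes). Variation between replicate libraries, as the coefficient that edgeR calls biological, was 9.61% (roots), 16.2% (shoots) and 13.2% (12 libraries). Each standard error is the size of the log2 fold change divided by the square root of F. CPM was scaled within an organ for the genotype comparisons and over 12 libraries for the organ comparisons. Likeness used log2(CPM + 0.5).

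Replicates differed by a chi-square per gene of 5.31 to 28, and each library was counted once. These values cannot tell whether replicates were separate plants. The alternatives tried were 2 other scalings (RLE, upper-quartile), 2 other filters (none, CPM above 1 in 3 libraries), DESeq2 1.42.0, voom from limma 3.58.1, a replicate block, other libraries in the fit, an adjusted p under 0.01 and the omission of each library. Scripts were checked on simulated counts.

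The 8 genes, lists and tests were chosen with earlier results of these data known. Named were all 8, the other clock genes called in either organ or else the most abundant of a sublist, and the genes most like each of the 8. Keywords matched 138 other models, and 34 were dropped on their names. With all 138, 4 genes fell and 0 rose in roots, and 3 rose and 2 fell in shoots.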

Additional observations from a re-analysis of the deposited data

Results flagged for a closer look

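The OX6 difference of PRR95 differed between organs in the test of that difference, at -0.49 on the log2 scale for roots minus shoots (edgeR adjusted p 0.0386); its level was 54.5 ± 3.13 CPM in OX6 roots against 63.1 ± 1.53 CPM in WT roots, and 570.1 ± 18.02 CPM in OX6 shoots against 471.9 ± 26.6 CPM in WT shoots (SD, n = 3 each). Neither difference within an organ passed (edgeR adjusted p 0.128 in roots and 0.120 in shoots), and the call was lost with RLE or upper-quartile scaling and in 10 of the 12 fits that leave out 1 library. The OX6 difference of CONSTANS-LIKE 14 (LOC_Os09g33550) also differed between organs, at -0.74 (edgeR adjusted p 0.0316), with 32.5 ± 2.10 CPM in OX6 roots and 33.4 ± 1.81 CPM in WT roots, and 18.5 ± 2.84 CPM in OX6 shoots and 11.4 ± 1.496 CPM in WT shoots (SD, n = 3 each). That call was lost in 9 of the 12 fits that leave out 1 library; within an organ, CONSTANS-LIKE 14 passed in shoots (edgeR adjusted p 0.00803) and not in roots (0.895).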

How the results depend on the processing

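The number of clock genes called between organs (7 in each genotype) and between genotypes in roots (0) was the same in every alternative run. In shoots it was 0, but 3 with DESeq2 and 4 with all 12 libraries in 1 fit. For the interaction it was 1, but 2 with DESeq2, limma-voom or CPM above 1 in 3 libraries; it was 0 with RLE or upper-quartile scaling or an adjusted p under 0.01, and 0 to 1 with a library left out. For the other clock and light genes it was 4 in roots (2 to 5 with a library left out) and 5 in shoots, but 8 with upper-quartile scaling, 11 with no count filter, 11 with DESeq2, 10 with 12 libraries, 2 at an adjusted p under 0.01, and 1 to 9 with a library left out. The causes were not tested. Over all genes, fitting 12 libraries in place of 6 moved the calls from 753 to 293 in roots and from 1481 to 2459 in shoots. All-gene calls in shoots were 2027 with DESeq2, 2220 with no count filter and 1582 with upper-quartile scaling. Upper-quartile scaling moved the median root over shoot log2 fold change of all genes to 0.18 in OX6 and 0.15 in WT. Among interaction calls over all genes, 35.1% were positive, against 47.1% with upper-quartile scaling and 49.6% with DESeq2, which made 1200 calls against 572.

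Directions turned only for values near 0. CONSTANS-LIKE 9 in roots was 0.0012, and -0.0041 with limma-voom, -0.0025 with 12 libraries and -0.14 to 0.099 with a library left out. With a library left out, the OX6 difference in roots ranged from -0.15 to 0.0070 for REVEILLE 8, -0.027 to 0.083 for PRR37, -0.034 to 0.041 for PRR1, -0.053 to 0.00060 for GIGANTEA and -0.081 to 0.014 for CONSTANS-LIKE 14; the interaction ranged from -0.018 to 0.13 for PRR73 and -0.11 to 0.0081 for Adagio-like protein 3.

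Same-numbered libraries did not deviate together (correlations of -0.0808, 0.0753 and 0.00645 in roots and -0.0215, -0.0103 and 0.0459 in shoots), so the numbers were not taken as pairs. With the replicate block, 0 clock genes were called for the interaction (PRR95 -0.49, adjusted p 0.0839), 0 for OX6 against WT in either organ and 7 between organs in each genotype, with 4 and 5 of the other clock genes in roots and shoots. It also ended the calls of CONSTANS-LIKE 14 for the interaction (-0.74, adjusted p 0.0649) and of Cyclic dof factor 2 in shoots (-0.37, 0.0522), and no other call of a named gene. The block turned GIGANTEA between OX6 organs to -0.020 and CONSTANS-LIKE 9 in roots to -0.0066.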
